A study of Mus musculus with 35 samples.

Results

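The Zscan4 cluster is a group of 6 related genes on mouse chromosome 7, Zscan4a, Zscan4b, Zscan4c, Zscan4d, Zscan4e and Zscan4f. They were found among the 54838 gene rows of each count table by matching the Ensembl identifiers to their names in GENCODE M21, and all 6 were present. Their levels were read in single mouse embryos at the late 2-cell stage, each library being 1 whole embryo of an F1(C57BL/6JxCBA/H) cross. Ovulation was timed with the hormone hCG; zygotes were injected 24 h after it and cultured in KSOM medium up to 48 h. The libraries were made with Smart-seq+5', an adaptation of Smart-seq2 that yields internal transcript fragments and reads from the 5' end, and both read classes were counted. The series asks, by its title and design, what the transcription factors SRF and DUX contribute when the embryo's own genome is first transcribed.

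The embryos formed 4 groups that share cross, culture and stage. Control embryos (n = 9) received a scrambled antisense oligonucleotide. DUX-LOF embryos (n = 9) received antisense oligonucleotides against DUX. SRF-LOF embryos (n = 7) received mRNA for a dominant negative SRF, a form of the protein made to interfere with the normal one. Double-LOF embryos (n = 10) received both agents. Oligonucleotide was absent from the SRF-LOF injection and control mRNA from all 4, so effects of mRNA injection itself cannot be told apart from those of the SRF construct. Any comparison with SRF-LOF, and the interaction, also carries the effect of oligonucleotide injection itself, which cannot be told apart either. The labels name no litter, injection session or batch, and a p-value here reflects only how single embryos varied. A level is given as counts per 1000000 gene counts (CPM), with the library sizes scaled by edgeR's TMM method, and it is a share of the embryo's RNA: fewer transcripts of the cluster and more of other RNA cannot be told apart.

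The Zscan4 genes encode proteins with a SCAN domain, which mediates protein pairing, and zinc fingers, which bind DNA. In the mouse they are a hallmark of the late 2-cell embryo, and they appear again in short bursts in embryonic stem cells, where Zscan4 is linked to telomere lengthening and genome stability. DUX, a homeodomain protein made at the start of genome activation, is known to bind and switch on Zscan4 genes together with other 2-cell genes and the MERVL retrotransposon.

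The 6 members lie within 608.1 kb, from 10794242 to 11402318 of chromosome 7 in GRCm38. Zscan4a (ENSMUSG00000110097.1, 10794242 to 10799057, minus strand) is annotated as an unprocessed pseudogene. Zscan4b (ENSMUSG00000095339.2, 10900740 to 10905050, minus strand) and Zscan4e (ENSMUSG00000095936.3, 11306378 to 11310682, minus strand) are annotated with reading frames of 505 codons. Zscan4c (ENSMUSG00000054272.6, 11005745 to 11010547, plus strand), Zscan4d (ENSMUSG00000090714.10, 11161374 to 11166159, minus strand) and Zscan4f (ENSMUSG00000070828.10, 11397915 to 11402318, plus strand) have frames of 506 codons. Each member has 4 exons. The annotation lists 3 further copies, Zscan4-ps1 inside the interval and Zscan4-ps2 and Zscan4-ps3 beyond Zscan4f, which are described beside the members and are not counted among them.

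Aligned end to end with gaps counted as differences, the transcripts formed 2 subgroups that follow their annotated lengths (2272 to 2279 and 1745 to 1829 bases). Zscan4a, Zscan4c and Zscan4d were 97.15 to 97.9% identical to each other, and Zscan4b, Zscan4e and Zscan4f 90.38 to 95.8%. The closest pair of all was Zscan4c and Zscan4-ps2, at 99.3%. In these alignments 1792 of the 1829 bases of Zscan4f matched Zscan4c, against 1704 matching Zscan4e and 1681 matching Zscan4b. Transcript length limits these counts, at 2276 bases for Zscan4c, 1745 for Zscan4e and 1779 for Zscan4b. Neither the subgroups nor these counts therefore show which of these copies Zscan4f is closest to. Of the 150-base windows of a transcript, a read's length, 86.19% of those of Zscan4f, 77.38% of Zscan4e, 68.4% of Zscan4b and 61.02% of Zscan4c also occur without a mismatch in another copy, against 25.07% for Zscan4a and 13.0% for Zscan4d. How reads with several equal alignments were counted is not given in the sources used here, and neither is the strand setting. Values of single members, those of Zscan4b, Zscan4c, Zscan4e and Zscan4f above all, are therefore uncertain, and the sum over the 6 members is given beside them.

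The promoters are shown because the DUX motif and the degree of likeness between members can be read from them. RefSeq sequences of GRCm38.p6, 250 bases before to 50 after the annotated start, were matched for 4 of the 6 members, and those of Zscan4b (chr7:10905001-10905300, minus strand), Zscan4d (chr7:11166099-11166398, minus strand) and Zscan4f (chr7:11397665-11397964, plus strand) are printed 5' to 3', with capitals marking the core GATTNAA of the published DUX motif on either strand and the TATA box letters TATAAA.
Zscan4b: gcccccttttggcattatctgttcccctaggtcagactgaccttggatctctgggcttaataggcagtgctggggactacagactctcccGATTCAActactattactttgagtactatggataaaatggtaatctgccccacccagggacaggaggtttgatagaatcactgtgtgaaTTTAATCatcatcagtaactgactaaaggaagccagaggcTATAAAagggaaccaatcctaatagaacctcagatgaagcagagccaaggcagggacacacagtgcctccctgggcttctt
Zscan4d: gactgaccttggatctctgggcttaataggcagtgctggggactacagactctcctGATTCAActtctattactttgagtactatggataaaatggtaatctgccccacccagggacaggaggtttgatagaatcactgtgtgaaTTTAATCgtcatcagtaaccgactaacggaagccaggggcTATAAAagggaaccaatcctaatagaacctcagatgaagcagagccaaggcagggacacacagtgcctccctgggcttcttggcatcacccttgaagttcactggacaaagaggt
Zscan4f: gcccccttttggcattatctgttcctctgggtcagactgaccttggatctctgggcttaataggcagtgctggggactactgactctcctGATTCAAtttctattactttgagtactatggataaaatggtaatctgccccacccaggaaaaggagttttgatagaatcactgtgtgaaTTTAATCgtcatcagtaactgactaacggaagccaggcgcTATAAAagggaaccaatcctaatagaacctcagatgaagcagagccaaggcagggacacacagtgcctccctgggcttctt
The promoter of Zscan4c was 99.28% identical to that of Zscan4f over the shared stretch. The other pairs among the 4 were 95.31 to 97.74% identical. Each of the 4 holds GATTNAA at 2 positions, which differ at the base that the motif leaves free. The first is GATTCAA on the gene's strand. The second lies on the other strand, appears on the gene's strand as TTTAATC and is followed by TATAAA. In Zscan4b and Zscan4f these begin 160, 71 and 31 bases before the annotated start, and in Zscan4d 194, 105 and 65 bases before it. Of 32544 distinct mouse promoters of this length, 3062 (9.41%) hold GATTNAA on either strand and 4416 (13.6%) hold TATAAA on either strand. The full palindrome, GATTNAA with a T before it and TCA after it, was in 11 promoters (0.0338%) and in none of the 4. The CArG box, the motif that SRF binds, was in 534 promoters (1.64%) and in none of the 4. A match is a run of letters and not a measured binding site.

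Internal gene counts ran from 220921 (double-LOF 6) to 2039475 per embryo with a median of 1074771, and 5' gene counts from 505157 to 2343900 with a median of 1187981. All 6 fixed markers of the late 2-cell embryo were detected in every group, although B020004J07Rik reached no more than 8.65 CPM in controls. In internal reads, of 6 cumulus cell markers, Fshr was at 0 in all 35 embryos and the summed level did not pass 51.2 CPM in any of them. Of 4 blood cell markers, Hbb-bs was at 0 everywhere and Ptprc was detected in 1 embryo, while Hba-a1 and Cd68 carried a summed level of 14.5 to 151.8 CPM in controls, 9.35 to 96.5 in SRF-LOF, 59.4 to 148.2 in DUX-LOF and 26.6 to 106.5 in double-LOF; their part in the results was not tested. The 3 sperm markers stayed at or under 18.5 CPM in sum. Srf reads, which include the injected mRNA where it shares sequence, had a median of 20.2 CPM in control, 22.6 in DUX-LOF, 288.4 in SRF-LOF and 587.7 in double-LOF, and every embryo given the mRNA lay above every embryo that was not. Duxf3, the Dux gene itself, was low in all groups, with a median of 7.96 CPM in control and 2.83 in DUX-LOF, and its reads were not called in edgeR's quasi-likelihood test (log2 fold change 0.87 ± 0.78 SE, adjusted p = 0.488, in internal reads and -0.39 ± 0.94, adjusted p = 0.817, in 5' reads). The library labelled DUX-LOF 10 had 117.2 CPM of Duxf3, against 8.12 CPM or less in the other 8 DUX-LOF embryos, so these reads give no check of the oligonucleotide.

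Embryos given the DUX oligonucleotide had little Zscan4 RNA, and all 6 members were lower than in controls. The sum of the 6 members in internal reads was 142.2 CPM in the lowest control, 726.3 in the median and 5008 in the highest. In DUX-LOF it was 75.3, 171.1 and 268.3 CPM. The groups overlapped at their edges: 4 of 9 DUX-LOF embryos lay below every control, and 6 of 9 controls lay above every DUX-LOF embryo, the exceptions being controls 1, 3 and 6. In 5' reads the sum was 79.2, 494.3 and 4148 CPM in control and 39.7, 84.8 and 140.9 in DUX-LOF.

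The double-LOF embryos had an intermediate but low sum, and the SRF-LOF embryos had sums in the range of controls. In double-LOF the lowest, median and highest sums in internal reads were 38.2, 293.6 and 491.6 CPM. Only double-LOF 10 lay below every control, while 5 of 9 controls lay above every double-LOF embryo. In SRF-LOF the sums were 446.8, 1589 and 4782 CPM, and 4 of 9 controls lay below all 7 SRF-LOF embryos.

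**Figure D1:**
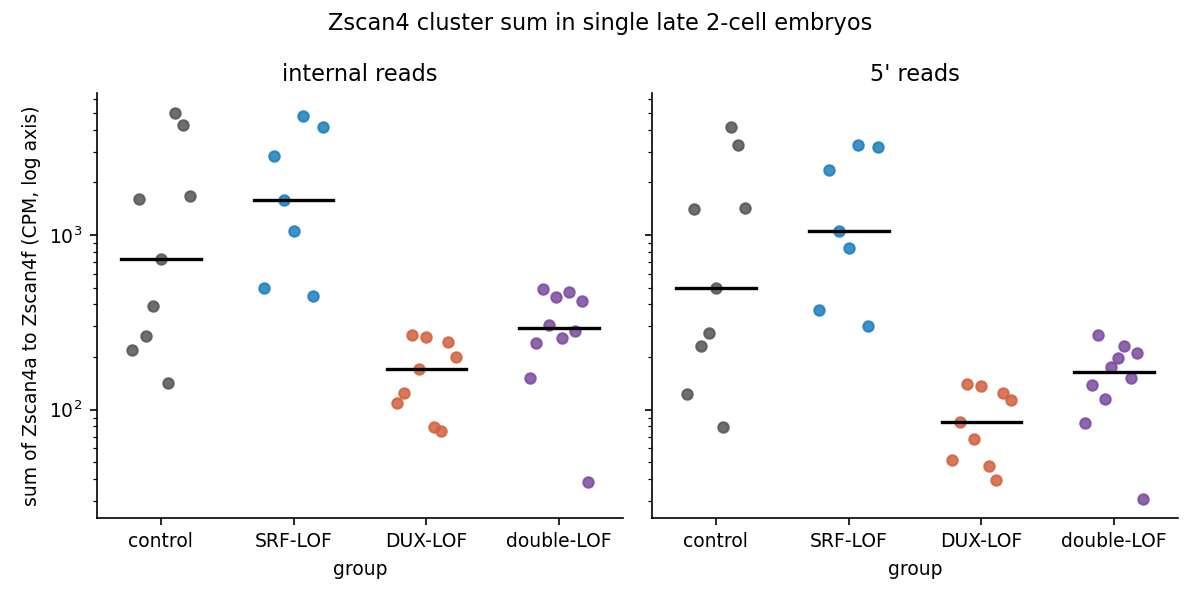
Summed level of the 6 Zscan4 members in each embryo (CPM, log axis) by group, for internal reads (left) and 5' reads (right); each point is 1 embryo and the line is the median. Control sums in internal reads spread from 142.2 to 5008 CPM, while DUX-LOF sums stay at or under 268.3 CPM.

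On the log2 scale with 1 CPM added, the mean sum in DUX-LOF differed from that in control by -2.38 for internal reads and by -2.84 for 5' reads. For double-LOF the difference from control was -1.62 and -2.06. For SRF-LOF it was 0.95 in both read classes. The sum carries no test here, because its members were chosen with results of these data known, and the tests below are those of the single genes in a fit over all genes.

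The spread between control embryos was the widest of the 4 groups. The highest control, embryo 8, had 35.2 times the sum of the lowest, embryo 6. The range was 10.7-fold in SRF-LOF, 12.9-fold in double-LOF and 3.56-fold in DUX-LOF. Without double-LOF 10, which had 39 internal counts in the whole cluster, the lowest double-LOF sum was 152.1 CPM in embryo 1. Controls 8 and 9 (5008 and 4263 CPM) stood above the next controls, 10 and 2 (1677 and 1603), then 5 (726.3) and 4, 3, 1 and 6 (391.7, 262.8, 219.8 and 142.2). The controls with the lowest sums (6, 1 and 3) had the deepest internal libraries of the group (2039475, 1454404 and 1359714 gene counts), and controls 1 and 6 had the lowest sums over 49 maternal transcripts in the group; the part of either in the spread was not tested.

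Zscan4f, the member with the highest control level per kilobase of exon (median 101.2 CPM per kb), had the lowest adjusted p of the 6. Its level in internal reads was 33.4, 198.3 and 1944 CPM (lowest, median, highest) in control and 7.76, 24.4 and 59.4 in DUX-LOF, and 7 of 9 DUX-LOF embryos lay below every control. In edgeR's quasi-likelihood test, adjusted over all 11940 genes tested, its log2 fold change was -4.37 ± 0.68 (SE, adjusted p = 2.75e-05). In 5' reads it was -4.46 ± 0.68 (adjusted p = 2.51e-05). The read classes come from the same libraries, so the second value is not an independent replicate.

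Zscan4c and Zscan4d, whose median control levels were 50.03 and 87.3 CPM per kb, also fell. Zscan4c was at 8.49, 113.9 and 916.0 CPM in control and at 5.27, 22.0 and 40.3 in DUX-LOF, a log2 fold change of -3.75 ± 0.74 (edgeR, adjusted p = 0.000491). Zscan4d was at 31.3, 198.3 and 1266 CPM in control and at 14.9, 26.9 and 120.2 in DUX-LOF, a change of -2.96 ± 0.66 (edgeR, adjusted p = 0.00176). For Zscan4c 6 of 9 controls lay above all DUX-LOF embryos, and for Zscan4d 5 of 9.

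Zscan4b and Zscan4e were the rare members, with medians of 1.74 and 3.997 CPM per kb in controls, and both were at or near 0 in DUX-LOF. Zscan4b reached 219.8 CPM in the highest control, with 3 of 9 controls at 0, and 7 of 9 DUX-LOF embryos were at 0, with 5 counts in the group and a highest value of 2.12 CPM. Zscan4e was at 0.78, 7.17 and 159.8 CPM in control, against 9 counts and a highest value of 2.12 CPM in DUX-LOF. Their log2 fold changes, -6.37 ± 1.20 and -5.31 ± 1.02 (edgeR, adjusted p = 0.000284 and 0.000372), carry the widest intervals of the 6 (95% interval -8.72 to -4.03 for Zscan4b). Counts this low limit the fold change, and their intervals cover the spread fitted across embryos.

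Zscan4a, the copy annotated as a pseudogene, had the smallest fall. It was at 67.4, 170.3 and 662.7 CPM in control and at 27.2, 63.5 and 113.7 in DUX-LOF, and 5 of 9 DUX-LOF embryos lay below every control. Its change was -1.75 ± 0.45 in internal reads (edgeR, adjusted p = 0.00576) and -2.50 ± 0.48 in 5' reads (edgeR, adjusted p = 0.000313). It made up 23.6 ± 13.1% (SD, n = 9) of the cluster's internal counts in controls and 40.2 ± 13.2% (n = 9) in DUX-LOF. The share of Zscan4f went from 31.6 ± 5.7% to 15.7 ± 7.3%. In the 9 DUX-LOF embryos Zscan4a held the largest mean share of the internal counts, ahead of Zscan4d at 30.0 ± 13.8%. The 5' counts gave another order, with Zscan4d at 31.1 ± 12.1%, Zscan4f at 30.1 ± 7.6% and Zscan4a at 21.0 ± 5.7% (n = 6 DUX-LOF embryos with enough counts). With a minimum of 20 counts all 9 entered, with Zscan4d at 34.7 ± 15.2%, Zscan4a at 25.0 ± 11.7% and Zscan4f at 22.4 ± 13.4%.

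All 6 of 6 members passed the threshold downwards in both read classes, where 8.22% of all genes tested did so in internal reads and 9.22% in 5' reads. Of these, Zscan4b and Zscan4e entered the test through their reads in other groups. In a fit of DUX-LOF and control alone they did not pass the filter on low counts, and 4 members were called in both read classes. Counting either direction, 17.0% of genes were called in internal reads and 17.9% in 5' reads. The median log2 fold change of the members was -4.06 in internal reads (range -6.37 to -1.75) and -4.18 in 5' reads, against -0.08 and -0.07 over all genes tested. All 6 stayed called in both read classes without the library labelled DUX-LOF 10, whose own sum of 75.3 CPM was the lowest of its group. Sums over 49 maternal transcripts were also lower, at 13640, 19460 and 30680 CPM in DUX-LOF against 17220, 35930 and 51410 in control. With libraries scaled to those maternal transcripts 5 of 6 members stayed called in internal reads, all but Zscan4a (-0.86).

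**Figure D2:**
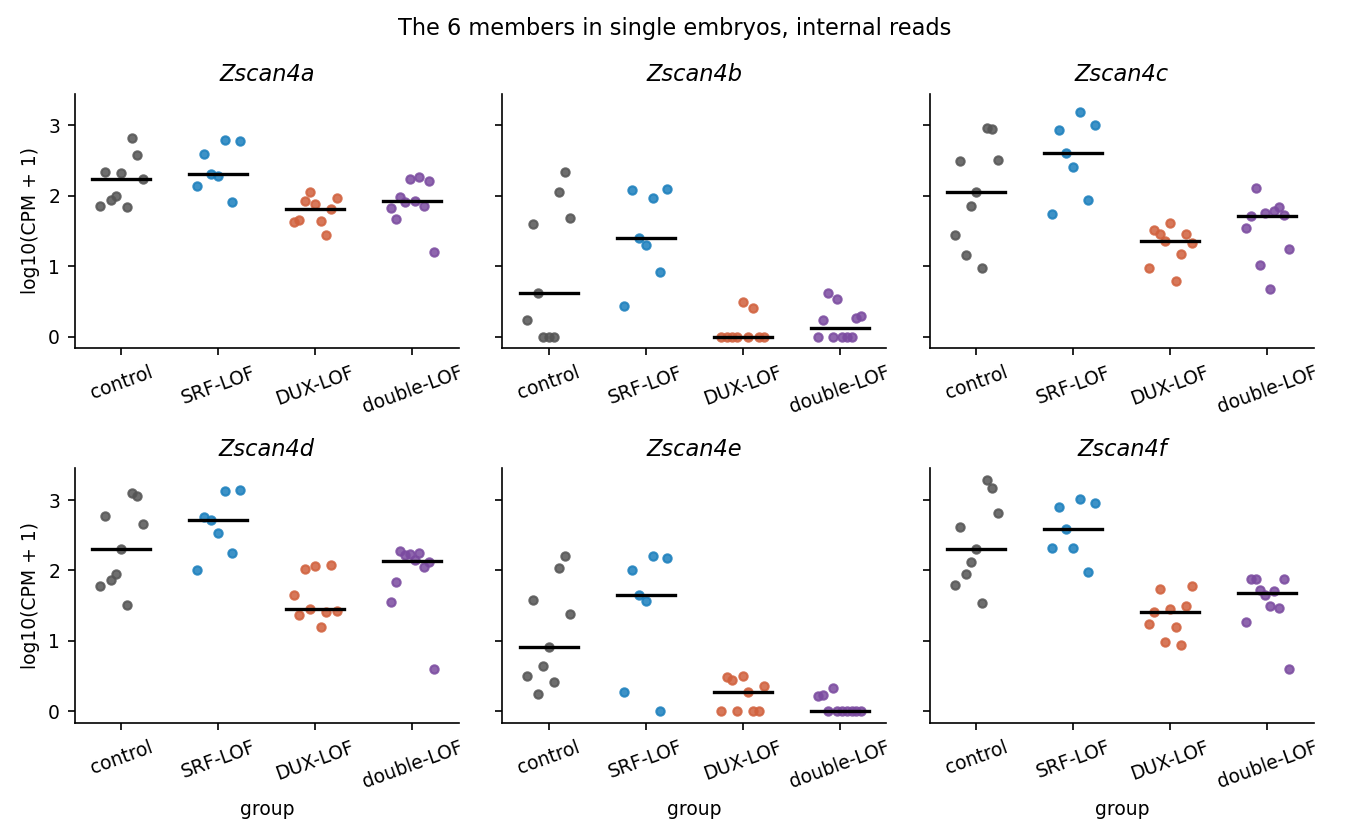
Level of each member in internal reads, log10(CPM + 1), in each embryo by group; each point is 1 embryo and the line is the median. Zscan4b and Zscan4e sit at or near 0 in DUX-LOF and double-LOF, while Zscan4a keeps a median of 63.5 CPM in DUX-LOF.

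Dominant negative SRF alone changed no member past the threshold. In edgeR's test 0 of 6 members were called in either read class, 0 had an unadjusted p under 0.05, and DESeq2 also called 0; over all genes, 1.67% were called in internal reads and 2.04% in 5' reads. The median log2 fold change of the members was 0.55 in internal reads and 0.39 in 5' reads, against -0.10 and -0.06 over all genes.

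The intervals in SRF-LOF were wide, so that the missed threshold does not show equal levels. Zscan4c, at 54.7, 410.1 and 1558 CPM in SRF-LOF, had the largest estimate, 1.03 ± 0.69 (95% interval -0.33 to 2.38, edgeR adjusted p = 0.34). Zscan4f, at 93.1, 383.6 and 1028 CPM, had an estimate near 0 (-0.11 ± 0.62, interval -1.33 to 1.11). The other 4 members were between 0.25 and 0.89, of which Zscan4a, Zscan4b and Zscan4d turned negative with libraries scaled to the maternal transcripts (-0.12, -0.53 and -0.08).

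SRF-LOF 3 and SRF-LOF 8, which stood apart from the other SRF-LOF embryos on the first principal component in an earlier analysis of these data, had the group's lowest Zscan4 sums (498.7 and 446.8 CPM). Without both, the calls over all genes rose from 199 to 4236 in internal reads, and still 0 of 6 members were called. Zscan4c then stood at 1.51 (edgeR, adjusted p = 0.0829) and Zscan4f at 0.29.

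With both agents, the cluster was low as with the DUX oligonucleotide alone. Against control, 5 of 6 members were called lower in internal reads, where 9.8% of all genes were called lower and 19.4% in either direction. In 5' reads all 6 were called lower, where 10.1% of all genes were and 21.6% in either direction. The median log2 fold change of the members was -3.11 and -3.31, against -0.08 and -0.01 over all genes. In a fit of double-LOF and control alone, Zscan4b and Zscan4e did not pass the filter on low counts. That fit called 3 members in internal reads and 4 in 5' reads.

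Zscan4f was at 2.94, 47.5 and 75.3 CPM in double-LOF, a change from control of -3.62 ± 0.63 (edgeR, adjusted p = 8.7e-05). Zscan4c was at 3.8, 51.2 and 128.0 CPM (-2.61 ± 0.67, adjusted p = 0.00528) and Zscan4d at 2.94, 136.5 and 190.4 CPM (-1.86 ± 0.61, adjusted p = 0.0273). Zscan4b had 8 counts in the 10 embryos (-5.60 ± 1.11, adjusted p = 0.000417). Zscan4e had 3 counts there against 305 in the 9 controls, a 95.6-fold lower rate with a 95% counting interval of 32.4 to 466.0, which covers counting error only, as do all such intervals here. Its edgeR change was -6.49 ± 1.13 (adjusted p = 8.81e-05). In 5' reads, with 29 counts against 455, it was smaller, at -4.61 ± 0.91 (edgeR, adjusted p = 0.000383). Zscan4a missed the threshold in internal reads (-1.16 ± 0.43, adjusted p = 0.0502) and passed it in 5' reads (-2.09 ± 0.45, adjusted p = 0.000898). Leaving out 1 of control 8, control 9 and double-LOF 1 ended the call of Zscan4d in internal reads, as did scaling to the ERCC spike-ins or to the maternal transcripts and the replicate block (adjusted p 0.0158 to 0.163 over the 46 alternatives).

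**Figure D3:**
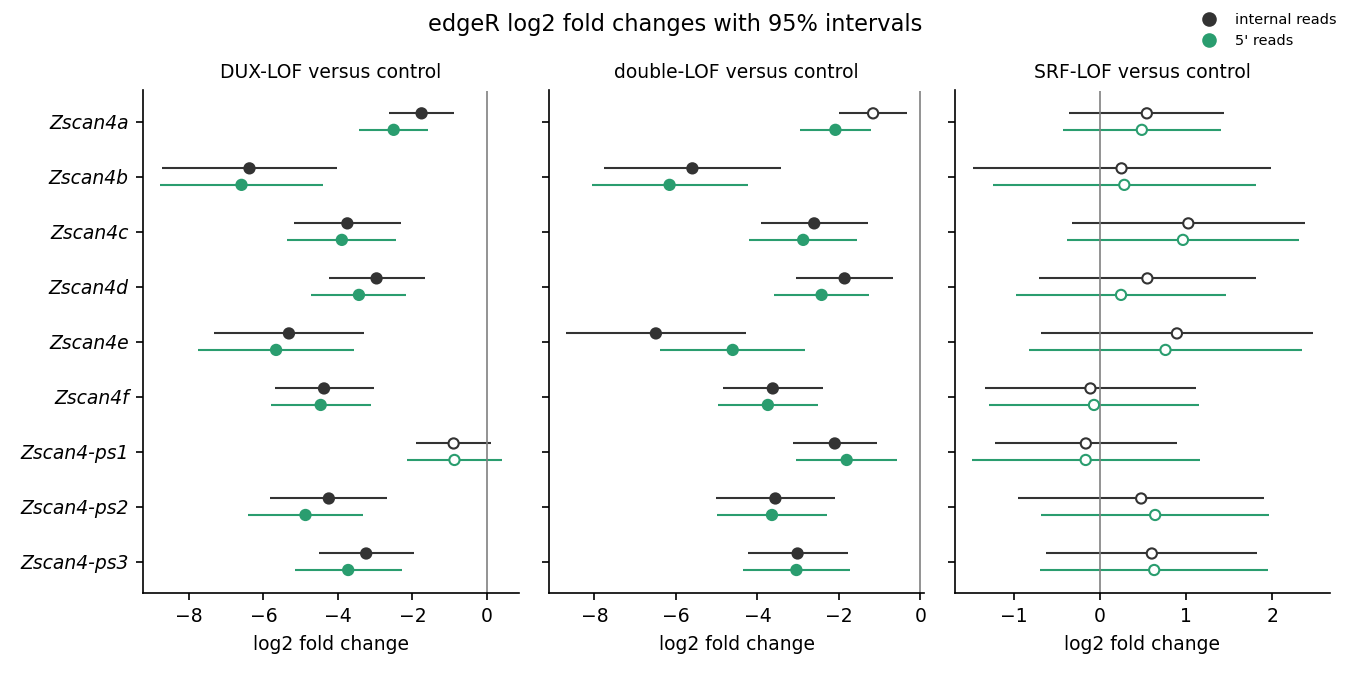
edgeR log2 fold changes with 95% intervals (bars) of the 6 members and the 3 further copies, in internal reads (dark) and 5' reads (green), for DUX-LOF, double-LOF and SRF-LOF against control; filled points have an adjusted p under 0.05. The members lie to the left of 0 in both groups given the DUX oligonucleotide and straddle 0 in SRF-LOF.

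Adding dominant negative SRF to the DUX oligonucleotide gave no call. Between double-LOF and DUX-LOF 0 of 6 members were called by edgeR in either read class, 0 had an unadjusted p under 0.05 and DESeq2 called 0, where 0.00838% of all genes were called in internal reads and 0.017% in 5' reads. The median estimate was 0.77 in internal reads and 0.87 in 5' reads, against -0.02 and 0.05 over all genes. Of 10 double-LOF embryos, 6 had a cluster sum above every DUX-LOF embryo and 1 had a sum below every one. The largest internal estimates were 1.14 ± 0.68 for Zscan4c (interval -0.19 to 2.47) and 1.10 ± 0.61 for Zscan4d (-0.10 to 2.31), and both intervals include 0.

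All 6 members were lower with both agents than with dominant negative SRF alone. Since SRF-LOF embryos received no oligonucleotide, effects of oligonucleotide injection itself cannot be told apart here from those of targeting DUX. Against SRF-LOF, 6 of 6 were called lower in both read classes. Of all genes, 13.2% were called lower in internal reads and 12.9% in 5' reads (27.5% and 27.2% in either direction). In a fit of double-LOF and SRF-LOF alone, Zscan4b and Zscan4e did not pass the filter on low counts. There 4 members were called in both read classes. In the fit over all 35 embryos the median log2 fold change of the members was -3.57 and -3.76, against 0.03 and 0.05 over all genes. Zscan4f changed by -3.51 ± 0.64 (edgeR, adjusted p = 0.000129), and all 10 double-LOF embryos lay below all 7 SRF-LOF embryos. Zscan4a changed by -1.71 ± 0.45 (edgeR, adjusted p = 0.0048). Zscan4e had 3 counts against 475, a 203.6-fold lower rate (counting interval 69.2 to 990.6), and an edgeR change of -7.39 ± 1.15 (adjusted p = 1.6e-05). In 5' reads, with 29 counts against 651, the change was smaller, at -5.37 ± 0.95 (edgeR, adjusted p = 7.51e-05). For the cluster sum the 2 groups did not overlap in 5' reads, while in internal reads 8 of 10 double-LOF embryos lay below all SRF-LOF embryos. With libraries scaled to the maternal transcripts, the internal calls of Zscan4a (-0.54, adjusted p = 0.246) and Zscan4d (-1.20, adjusted p = 0.0894) were lost, and 6 of 6 stayed called in 5' reads; over the 46 alternatives the adjusted p ranged from 0.000625 to 0.246 for Zscan4a and from 0.000913 to 0.0894 for Zscan4d.

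The effect of the DUX oligonucleotide was not shown to differ with and without dominant negative SRF. The interaction was called for 0 of 6 members and for 0.0% of all genes in both read classes, with 0 members at an unadjusted p under 0.05 and 0 called by DESeq2. Its estimates for Zscan4f were 0.86 ± 0.87 in internal reads (interval -0.84 to 2.56) and 0.79 ± 0.87 in 5' reads. Without SRF-LOF 3 and 8, 1172 genes over the whole table had an interaction in internal reads, and 0 of 6 members did.

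Per kilobase of exon, the order of the members in internal reads differed between groups. In controls the median internal levels were 101.2 CPM per kb for Zscan4f, 87.3 for Zscan4d, 74.7 for Zscan4a, 50.03 for Zscan4c, 3.997 for Zscan4e and 1.74 for Zscan4b. In SRF-LOF Zscan4d led at 230.6 CPM per kb, before Zscan4f at 195.8 and Zscan4c at 180.2. In DUX-LOF Zscan4a led at 27.9, before Zscan4f at 12.4, Zscan4d at 11.8 and Zscan4c at 9.67. In double-LOF Zscan4d led at 60.1, before Zscan4a at 36.1. In 5' reads Zscan4f led in DUX-LOF as in control, with medians of 13.7 and 79.99 CPM per kb, and Zscan4a was behind Zscan4d (10.8) in DUX-LOF at 9.56. The ranges over embryos of neighbours in each of these orders overlapped, so the order is a description.

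Zscan4f and Zscan4c were present in different ratios in control and SRF-LOF. This pair was singled out after its values were seen and carries no test. Of their 150-base windows, 86.19% and 61.02% also occur in another copy, and the part of such shared reads in the ratio was not tested. In controls the ratio of Zscan4f to Zscan4c internal counts was 1.36, 2.05 and 6.53 (lowest, median, highest), and 0 of 9 controls had more Zscan4c. In SRF-LOF it was 0.66, 0.93 and 3.78, and 6 of 7 embryos lay below every control, the exception being SRF-LOF 3. In 5' reads the medians were 2.32 and 0.99, and 5 of 7 SRF-LOF embryos lay below every control. In DUX-LOF the internal ratio was 0.39, 1.09 and 2.88 and in double-LOF 0.18, 0.82 and 8.0, from much lower counts. Below every control lay 5 of 9 DUX-LOF and 6 of 10 double-LOF embryos, in both read classes, so a lower ratio was not particular to SRF-LOF.

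**Figure D4:**
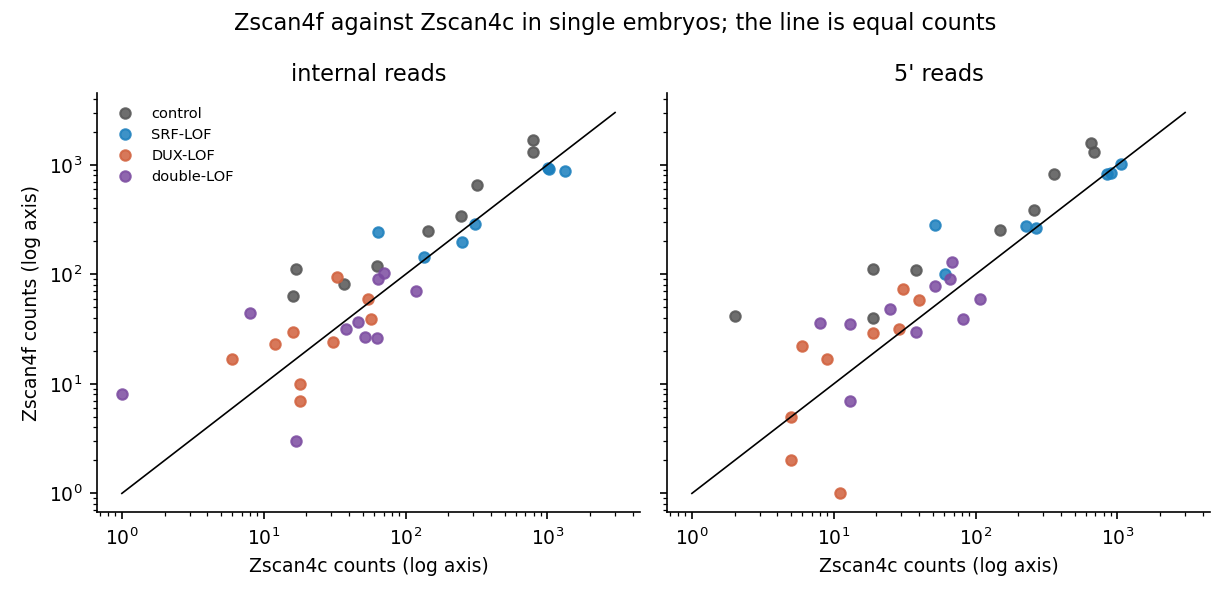
Counts of Zscan4f against those of Zscan4c in each embryo (both axes log), for internal reads (left) and 5' reads (right), coloured by group; the line marks equal counts. All control points lie above the line, and 5 of 7 SRF-LOF embryos lie below it in internal reads.

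Levels of the members varied together from embryo to embryo. Spearman's rho between the internal levels of the 15 member pairs over the 35 embryos ran from 0.54 (Zscan4b and Zscan4e) upwards, and the pairs with Zscan4b or Zscan4e, the rare members, were at or under 0.73. It was 0.85 for Zscan4a and Zscan4d, 0.82 for Zscan4d and Zscan4f and 0.81 for Zscan4c and Zscan4f. With group means subtracted, the last 2 pairs kept 0.83 and 0.79. These points share a library and its depth, and the members share reads, so the values describe these libraries and carry no p. Internal and 5' levels of the sum ranked the 35 embryos nearly alike (rho 0.97), and so did those of Zscan4f (0.98), while the rare Zscan4b and Zscan4e had 0.78 and 0.74.

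The 3 further copies did not all follow the members. Zscan4-ps2 was at 5.15, 85.2 and 637.2 CPM in control and at 0.0, 6.21 and 38.2 in DUX-LOF, a change of -4.24 ± 0.80 (edgeR, adjusted p = 0.000303). Zscan4-ps3 changed by -3.24 ± 0.65 (adjusted p = 0.000612). Zscan4-ps1, at 8.90, 23.5 and 182.7 CPM in control and 3.88, 17.7 and 46.1 in DUX-LOF, was not called (-0.89 ± 0.51, adjusted p = 0.242), and it was called in double-LOF against control (-2.10 ± 0.53, edgeR adjusted p = 0.00425). Its rho with the members was 0.26 to 0.60.

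Other genes of the interval held few reads. The annotation places 30 other genes between Zscan4a and Zscan4f, of which 8 reached a mean of 1 CPM in internal reads: Gm7203, Gm7789, Gm33601, Gm7151, Gm18204, Gm6909, Gm45870 and Gm45598, all annotated as pseudogenes. The highest mean was 32.8 CPM, for Gm6909. Of the 5 that could be tested in internal reads, the one with the lowest adjusted p in DUX-LOF against control was Gm33601 (2.35 ± 0.89, edgeR adjusted p = 0.062). Gm33601 was called higher in double-LOF than in control (3.62 ± 0.88, edgeR adjusted p = 0.00321) while the Zscan4 genes on either side were lower. In 5' reads Gm6909 was called higher in double-LOF than in SRF-LOF (2.36 ± 0.76, edgeR adjusted p = 0.0193).

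**Figure D5:**
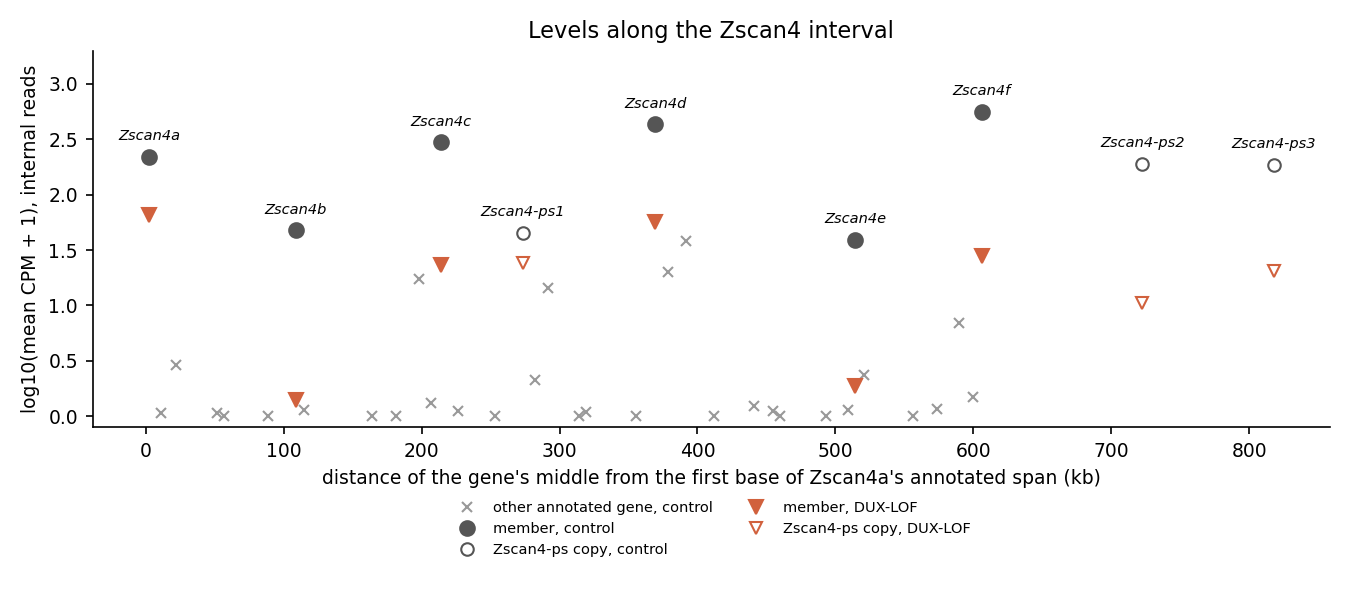
Mean level in internal reads, log10(mean CPM + 1), of the members and the further copies in control (circles) and DUX-LOF (triangles), and of the other annotated genes of the interval in control (crosses), against the distance of each gene's middle from the first base of Zscan4a in kb. Every member is lower in DUX-LOF, and no other gene of the interval reaches a mean of 40 CPM in control.

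Genes elsewhere in the genome tracked the cluster sum. Among 9949 genes with a mean of at least 10 CPM, the internal levels most like it over the 35 embryos were those of Gm5039 (rho 0.91), Mthfd2 (0.90), Gm8332 (0.89), Gm11238 (0.88) and Gm11756 (0.88). With group means subtracted, the most alike were Gm3147 (0.83), Tcl1b2 (0.82), Gm2022 (0.81), Gm11543 (0.80) and Tmem92 (0.79). Gm5039 was at 7.43, 83.5 and 1424 CPM in control and at 0.70, 10.5 and 14.6 in DUX-LOF. Tcl1b2 was at 272.0, 1485 and 2580 CPM in control and at 251, 632.3 and 1004 in DUX-LOF. These rho values were picked as the highest over all these genes and are a description.

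The level of Duxf3 itself ranked the embryos less like the cluster sum did (rho 0.39, and 0.33 with group means subtracted). The internal body of MERVL, the retrotransposon that DUX also activates, had 0.18 and 0.32, and its long terminal repeat MT2_Mm 0.38 and 0.32, all in internal reads; in 5' reads MT2_Mm had 0.64 and 0.35. Srf had 0.23 and 0.44. The summed level of 39 DUX-linked 2-cell genes outside the cluster had 0.85 and 0.77, that of the maternal transcripts 0.77 and 0.54. The number of genes detected ran the other way (-0.58 and -0.30). All these points share the library and its depth.

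Many DUX-linked 2-cell genes outside the cluster also fell in DUX-LOF. Of 37 tested, 23 fell and 1 rose in internal reads, with a median of -1.73, where 8.22% of all genes were called lower and 8.74% higher. Ddit4l, an inhibitor of mTOR signalling, was at -4.01 ± 0.50 and Gm5039 at -5.33 ± 0.78 (edgeR, adjusted p = 8.46e-07 and 1.25e-05). B020004J07Rik rose by 4.2 ± 0.52 (adjusted p = 8.46e-07). In SRF-LOF the lowest edgeR adjusted p of the 37 was 0.0786, for Tcstv1 (1.37 ± 0.44). In double-LOF 11 fell and 2 rose against control, where 9.8% of all genes were called lower and 9.58% higher. Of 33 tested in 5' reads, 7 fell and 2 rose in double-LOF, where 10.1% of all genes were called lower and 1348 of 11749 higher.

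Of 30 tested regulators of the 2-cell state and of Zscan4, 4 rose and 3 fell in DUX-LOF in internal reads, shares near those of all genes (8.74% higher and 8.22% lower), with a median of 0.35. In 5' reads 8 of 30 rose and 2 fell, where 1016 of all 11749 genes tested were called higher and 1083 lower, so the share that rose was larger there. Chaf1a, a subunit of the CAF-1 histone chaperone, whose loss is known to raise 2-cell genes in mouse embryonic stem cells, rose by 1.27 ± 0.23 (edgeR, adjusted p = 0.000169). Uhrf1 and Dnmt1, which copy DNA methylation at replication, rose by 1.13 ± 0.27 and 1.11 ± 0.28 (adjusted p = 0.00331 and 0.00572). Hdac2, a histone deacetylase, changed by -1.43 ± 0.27 (adjusted p = 0.000333). In SRF-LOF the lowest adjusted p of the 30 was 0.127, for Uhrf1 (0.73 ± 0.28).

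Genes of telomere upkeep and recombination, processes tied to ZSCAN4 in stem cells, had a median near that of all genes. Of 19 tested in DUX-LOF in internal reads, 3 fell and 1 rose, where 8.22% of all genes were called lower and 8.74% higher, with a median of -0.01 against -0.08 over all genes. Terf2, which encodes a telomere-binding protein of the shelterin complex, rose by 1.49 ± 0.38 (edgeR, adjusted p = 0.00592), and Tinf2, of the same complex, fell (-0.77 ± 0.19, adjusted p = 0.00367). Rad50, of double-strand break repair, also fell (-0.65 ± 0.22, adjusted p = 0.0341).

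Maternal oocyte transcripts, which the embryo degrades as its genome is activated, were lower in DUX-LOF and higher in SRF-LOF in part. Of 45 tested in internal reads, 14 fell and 0 rose in DUX-LOF, where 8.22% of all genes were called lower and 8.74% higher. In 5' reads 10 of 47 fell and 2 rose, where 9.22% of all genes were called lower and 1016 of 11749 higher. Those that fell in internal reads included Zp3, a zona pellucida protein (-2.19 ± 0.41, edgeR adjusted p = 0.000246), and Dppa3, a protector of maternal DNA methylation (-1.42 ± 0.27, adjusted p = 0.000309). In SRF-LOF 6 rose and 0 fell, where 1.08% of all genes were called higher, among them Oas1d (2.37 ± 0.40, adjusted p = 0.00332) and Zfp57 (1.58 ± 0.37, adjusted p = 0.0259). The maternal sum was 27480, 53930 and 89860 CPM in SRF-LOF and 11690, 24190 and 52610 in double-LOF. Its part in the level of the cluster was not tested.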

How the data were processed

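For each of 35 embryos the authors deposited raw counts of internal reads and, in a separate table, of 5' reads, over genes, 1395 repeat subfamilies and 92 ERCC spike-ins. The 5' counts, handled as estimated counts, are whole numbers as deposited by the authors, and rounding changed none. STAR 2.7.11a and build GRCm38 are named in the submitters' processing notes. The counting tool is not given in the sources used here. Of the gene IDs, 53861 matched GENCODE M21 exactly and 54723 without their version. Counts were scaled by TMM, filtered with filterByExpr (minimum count 10), leaving 11940 (internal) and 11749 (5') genes, and tested with edgeR 4.0.16 (R 4.3.3), a quasi-likelihood fit over all 35 embryos per read class, with Benjamini-Hochberg adjustment at 0.05. An interval is the estimate ± 1.96 SE. Shares of the cluster's counts used embryos with at least 50, or at least 20 where stated. No 2 libraries were identical. The procedure was tested on simulated data. Alternatives were DESeq2 1.42.0, other scalings and filters, a replicate block and leaving out embryos. Members, lists and singled-out libraries were chosen with earlier results of these data known. Named genes were the members, neighbours at 1 CPM or more, the 5 most alike and up to 4 per list by adjusted p; 1 gene of the telomere list is not reported here.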

Additional observations from a re-analysis of the deposited data

Results flagged for a closer look

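In 11 of 80 groups of embryos looked at, 1 embryo stood apart from the rest of its group by Dixon's test. Chance flags about 1 in 20 such groups where the groups are independent and their values normally distributed. The groups here share embryos across genes and read classes, so 11 of 80 does not show an excess over chance. Control 8 stood above the other controls for Zscan4a in 5' reads (412.0 CPM) and for Zscan4-ps1 in both classes (183.0 CPM internal, 106.0 CPM 5'). Among double-LOF embryos, Zscan4c was highest in embryo 3 in both classes (128.0 CPM internal, 90.7 CPM 5'), Zscan4b in embryo 1 in 5' reads (2.34 CPM) and Zscan4-ps2 in embryo 7 in internal reads (47.4 CPM). DUX-LOF 7 stood above its group for Zscan4-ps2 (38.2 CPM internal, 16.8 CPM 5') and Zscan4-ps3 (58.7 CPM internal, 33.5 CPM 5').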

How the results depend on the processing

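The count of members called kept its main value in both read classes when each embryo was left out in turn, except double-LOF against control in internal reads, which ranged from 4 to 6 (4 without control 8, control 9 or double-LOF 1). That count was 3 when only the groups compared were fitted, since Zscan4b and Zscan4e did not pass the filter of that fit, and 6 without a filter on low counts. For the same reason, fitting only the groups compared left 4 members called in DUX-LOF against control and in double-LOF against SRF-LOF in both classes. In 5' reads it also left 4 in double-LOF against control. Scaling to the ERCC spike-ins left 5 members called in DUX-LOF against control and 4 in double-LOF against control in internal reads, and scaling to the maternal list 5 and 4, with 4 in double-LOF against SRF-LOF. Under the maternal scaling the median log2 fold change of all genes was -0.82 in SRF-LOF against control and 0.55 in DUX-LOF against control, from -0.10 and -0.08. The sign of Zscan4f in SRF-LOF against control changed among the alternatives (-0.75 to 0.40). Embryo numbers did not pair the embryos: 16 of 41 same-number pairs correlated above 0.1 in internal reads and 18 in 5' reads, and 7 and 6 of 35 embryos correlated best with an embryo of their own number. With the replicate block 4 members were called in double-LOF against control in internal reads (Zscan4c and Zscan4d lost it, Zscan4a gained it); in the other comparisons and in 5' reads the counts of 6 and 0 were as without it. The low-depth alternative left out double-LOF 6 in internal reads and no library in 5' reads. Depth limits Zscan4b and Zscan4e, which had 9 or fewer internal counts in DUX-LOF and in double-LOF.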
